A study of Sus scrofa with 72 samples.

Results

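Matricellular proteins are secreted into the extracellular matrix but do not build its scaffold. They bind collagens, growth factors, proteases and cell-surface receptors, and in this way they alter how a cell adheres, spreads and receives signals. Fibroblast-like progenitors such as synovial stem cells make many of them, and CTGF, CYR61 and THBS1 are textbook targets of TGF-beta signalling and of the mechanically regulated YAP and TEAD transcription factors, as known mainly from human and mouse cells. Adipogenesis, in which such cells round up and fill with lipid, is known to go along with a rebuilding of the matrix around them.

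The expression of 7 matricellular genes was followed through adipogenesis: POSTN (periostin), CTGF (also CCN2), CYR61 (also CCN1), THBS1 and THBS2 (thrombospondins), TNC (tenascin C) and SPARC (osteonectin). They were found by their gene symbol in the annotation of the array platform, which names 13755 symbols on 26426 of 47845 probe sets. The 7 genes have 15 probe sets, and for each gene the one of highest mean over the arrays was used. Of these 7 probe sets, 6 passed the filter for testing. That of SPARC did not, because its SD over the arrays was only 0.126.

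Synovial mesenchymal stem cells (SMSCs) came from male piglets, 59 days old, of 2 breeds, Angeln Saddleback (AS) and German Landrace (DL), and from 2 tissues, adipose synovium of the infrapatellar fat pad (FP) and fibrous synovium (FS). They were collected after 1, 4, 7 and 14 days in adipogenic induction medium (AIM), and at the start (day 0) and after the same times in complete culture medium (CCM), the control. The cells of 3 pigs were pooled for each breed and tissue, and each of the 36 groups of breed, tissue, medium and day was measured in 2 cultures of its pool on 72 Snowball arrays. P-values therefore measure the spread between cultures of 4 pools and not between animals, and a breed or tissue effect cannot be told apart from an effect of the pool.

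The labels of 4 arrays went against the data. These are both media of the second AS FP culture on day 7, and in CCM the second culture of DL FP on day 0 and that of DL FS on day 1. Correlated with arrays that share their label, they had medians between -0.53 and 0.34, and the 68 arrays used had medians between 0.45 and 0.81. The 4 were left out, which leaves 7 arrays in AIM on day 7 and in CCM on days 0, 1 and 7, and 8 arrays elsewhere. Values with all 72 arrays are given where a result rests on them, and they take these 4 arrays under the labels that went against the data. Of 8 adipocyte markers, 7 were tested, and all 7 were higher in AIM than in CCM on days 4, 7 and 14. Of 6 markers of mesenchymal stem cells on the array, 5 lay more than 1 log2 unit above the background controls. So did 3 of 3 cartilage, 1 of 3 macrophage, 1 of 3 muscle, 3 of 4 endothelial and 2 of 3 pericyte markers. The highest state means of the endothelial PECAM1, VWF and CDH5 were only 4.35, 4.37 and 4.86. The macrophage marker CD14 had state means between 5.17 and 7.27 and the muscle marker DES between 5.29 and 6.22, against 3.33 in the controls, while the leukocyte gene PTPRC, the macrophage gene CD163 and the muscle genes MYOD1 and MYF5 lay below the controls in every state. In such bulk samples, fewer cells that express a gene and less RNA per cell cannot be told apart.

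First, AIM was compared with CCM on the same day, which holds the time in culture equal. AIM was a commercial adipogenesis kit and CCM a basal medium with serum. An effect of adipogenic induction therefore cannot be told apart from other differences between the media. All levels are log2 intensities as deposited, and a difference is called where its adjusted p (limma, Benjamini-Hochberg over 18335 probe sets) is under 0.01. On day 1 no member was lower in AIM and 1 of the 6 tested, THBS2, was higher, against 17.6% and 10.4% of all tested probe sets. All 6 tested members were lower in AIM on day 4, against 29.5% of all probe sets. The same 6 were lower on day 7, against 27.4%. On day 14 the count was 3 of 6, POSTN, THBS2 and TNC, against 27.7%. The median difference over the 6 members was 0.30, -1.43, -1.37 and -0.64 on days 1, 4, 7 and 14, and that over all tested probe sets was -0.03, -0.02, -0.05 and -0.01. No member was higher in AIM after day 1, where 19.6% of probe sets were on day 4, 17.7% on day 7 and 20.9% on day 14. The 4 comparisons use separate arrays but the same pools. Of 5 tested markers of mesenchymal stem cells, 4, 4 and 2 were lower in AIM on days 4, 7 and 14, with medians of -0.40, -0.57 and -0.24. Of 3 cartilage markers 1, 2 and 2 were lower, and of 2 tested pericyte markers 0, 1 and 1. None of these was higher on those days. Of all probe sets 29.5%, 27.4% and 27.7% were lower, and with lists this short nothing is read from the counts. The part of these markers in the members' differences was not tested.

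**Figure D1:**
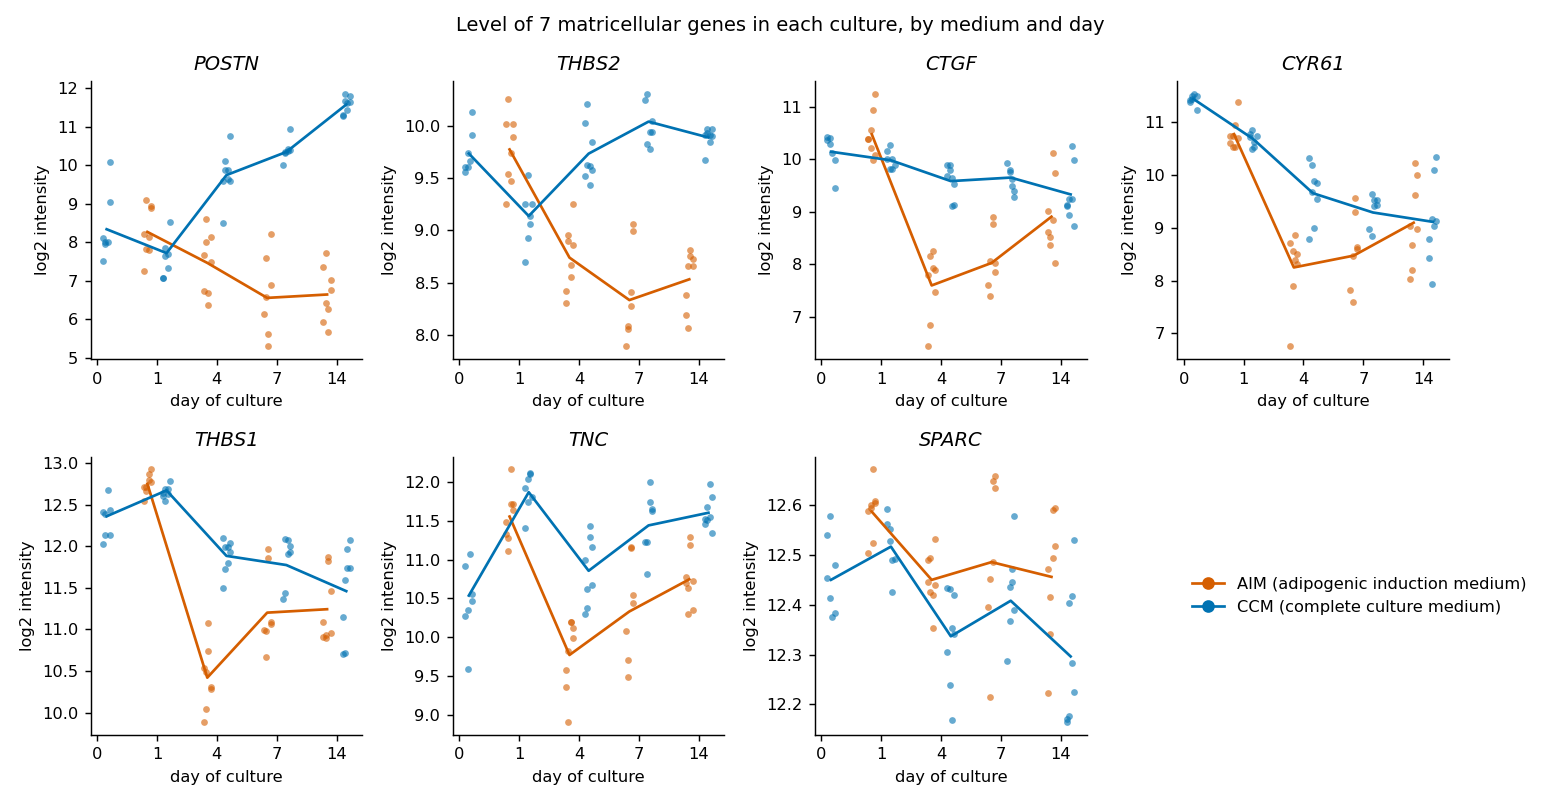
Log2 intensity of each gene (vertical axis, its own range per panel) on each day of culture (horizontal axis, days drawn at equal steps) for the 68 arrays used. Each point is 1 culture, AIM in orange left of CCM in blue, and lines join the means of the 4 pools. POSTN is lower in AIM than in CCM from day 4 on, with AIM means of 6.56 on day 7 and 6.65 on day 14 while CCM rises. CTGF, CYR61 and THBS1 dip on day 4 in AIM and differ from CCM by -0.43 to -0.02 on day 14. SPARC spans only 0.29 log2 units between its state means.

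POSTN, an integrin-binding matrix protein of connective tissue and wound repair that promotes the cross-linking of collagen, had the widest range of the 7 genes, 5.02 log2 units between its highest and lowest state means. On day 14 its lowest, median and highest levels were 5.68, 6.59 and 7.73 in AIM, against 11.29, 11.64 and 11.86 in CCM. On day 7 they were 5.30, 6.57 and 8.22 in AIM, against 10.01, 10.37 and 10.93 in CCM. The media did not overlap on either day. On day 4 they were 6.37, 7.58 and 8.62 in AIM, against 8.51, 9.76 and 10.77 in CCM, so that 1 of 8 AIM cultures lay inside the range of CCM. On day 1 the ranges overlapped, with 7.26, 8.17 and 9.10 in AIM and 7.07, 7.66 and 8.54 in CCM.

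The difference in POSTN was 0.54 ± 0.24 (SE) on day 1 and did not pass (adjusted p = 0.085, limma). It was -2.28 ± 0.23 on day 4, a 4.86-fold lower intensity in AIM (adjusted p = 5.69e-11, limma), -3.79 ± 0.26 or 13.85-fold on day 7 (adjusted p = 1.81e-15) and -4.93 ± 0.23 or 30.6-fold on day 14 (adjusted p = 2.48e-20). With all 72 arrays the day 7 difference was -2.74 (adjusted p = 9e-07). The level changed with time in both media. In CCM it was 3.24 ± 0.24 higher on day 14 than on day 0, a 9.45-fold increase (adjusted p = 1.82e-13), and in AIM day 14 differed from day 1 by -1.63 ± 0.23 (adjusted p = 1.34e-07). The order of the 9 states ran from CCM on day 14, 7, 4 and 0 through AIM on day 1, CCM on day 1 and AIM on day 4 down to AIM on day 14 and 7. Of neighbours in this order, CCM on day 14 and 7 differed (adjusted p = 0.0016), as did CCM on day 4 and 0 and AIM on day 4 and 14, and the other 5 pairs did not pass.

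THBS2, a thrombospondin that restrains the growth of blood vessels and takes part in the assembly of collagen fibrils, was the 1 member called higher in AIM on day 1. Its lowest, median and highest levels on that day were 9.25, 9.82 and 10.26 in AIM and 8.69, 9.14 and 9.53 in CCM, with 2 of 8 AIM cultures inside the range of CCM. The difference was 0.64 ± 0.12, a 1.56-fold higher intensity (adjusted p = 5.8e-05, limma), and it missed the threshold with all 72 arrays (0.60, adjusted p = 0.021). From day 4 on the sign was the opposite, with no overlap between the media. The levels were 8.30, 8.76 and 9.25 in AIM against 9.44, 9.63 and 10.22 in CCM on day 4, and 7.89, 8.28 and 9.06 in AIM against 9.78, 9.95 and 10.31 in CCM on day 7. On day 14 they were 8.07, 8.66 and 8.81 in AIM and 9.68, 9.91 and 9.98 in CCM.

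The THBS2 difference on days 4, 7 and 14 was -0.997 ± 0.12, -1.71 ± 0.13 and -1.36 ± 0.12, or 2.00-, 3.27- and 2.57-fold (adjusted p = 1.6e-09, 3.66e-14 and 7.34e-13, limma). On day 7 it was -1.19 with all 72 arrays. In CCM the level first fell by 0.60 ± 0.13 on day 1 relative to day 0 (adjusted p = 0.00024) and was then 0.60 ± 0.12 higher on day 4 than on day 1 (adjusted p = 9.39e-05). AIM cultures on day 1 and CCM cultures on day 0 differed by only 0.04 ± 0.12 (adjusted p = 0.83).

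CTGF and CYR61 belong to the CCN family, secreted proteins of several modules that bind integrins, heparan sulphates and growth factors. In AIM, all 6 tested members were lower on day 4 than on day 1, against 28.4% of all probe sets, and CTGF fell by 2.88 ± 0.23 or 7.38-fold (adjusted p = 1.07e-13, limma). On day 4 its lowest, median and highest levels were 6.43, 7.84 and 8.25 in AIM, against 9.11, 9.66 and 9.89 in CCM. On day 7 they were 7.39, 8.03 and 8.91 in AIM, against 9.28, 9.63 and 9.93 in CCM. The media did not overlap on these 2 days, and they did on day 1 (9.99, 10.39 and 11.25 in AIM against 9.81, 10.00 and 10.27 in CCM) and on day 14 (8.03, 8.73 and 10.11 in AIM against 8.72, 9.19 and 10.26 in CCM). The difference was 0.51 ± 0.24 on day 1 (adjusted p = 0.11), -1.99 ± 0.23 on day 4 (adjusted p = 1.38e-09), -1.63 ± 0.26 on day 7 (adjusted p = 1.03e-06) and -0.43 ± 0.23 on day 14 (adjusted p = 0.12). Within AIM, the level on day 14 was 1.31 ± 0.23 higher than on day 4 (adjusted p = 2.38e-05). At this step 4 members, CTGF, CYR61, THBS1 and TNC, were called higher, against 12.4% of all probe sets, and POSTN was called lower, against 7.47%. No neighbouring pair among the 9 states of CTGF passed.

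CYR61, the other CCN member, changed with time in both media. Its lowest, median and highest levels on day 1 were 10.53, 10.72 and 11.37 in AIM, against 10.49, 10.71 and 10.86 in CCM. The next time point, day 4, gave 6.75, 8.44 and 8.86 in AIM, against 8.79, 9.76 and 10.31 in CCM, with 1 of 8 AIM cultures inside the range of CCM. For day 7 they were 7.60, 8.59 and 9.56 in AIM, against 8.84, 9.43 and 9.64 in CCM, where 2 of 7 AIM cultures lay inside. By day 14 the levels were 8.03, 9.00 and 10.24 in AIM and 7.95, 9.08 and 10.33 in CCM, and all 8 AIM cultures lay inside the range of CCM.

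The CYR61 difference was 0.10 ± 0.25 on day 1 (adjusted p = 0.81, limma) and -1.41 ± 0.24 on day 4, or 2.65-fold (adjusted p = 3.77e-06). The value on day 7, -0.82 ± 0.27, passed narrowly (adjusted p = 0.0096), and it missed the threshold in 12 alternative settings, among them all 72 arrays (-0.60, adjusted p = 0.072) and the removal of any 1 of 7 of the 8 culture lines, all but AS FP replicate 2. It was -0.02 ± 0.24 on day 14 (adjusted p = 0.96). Within CCM the level fell by 2.33 ± 0.25 on day 14 relative to day 0, or 5.02-fold (adjusted p = 1.5e-09). The spread over CCM cultures was an SD of 0.79 on day 14 and 0.10 on day 0.

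THBS1, a thrombospondin that binds the receptors CD36 and CD47 and can activate latent TGF-beta, had a narrow spread on day 1, between 12.55 and 12.92 in AIM and between 12.55 and 12.79 in CCM. By day 4 it had fallen by 2.33 ± 0.11 in AIM, or 5.02-fold, relative to day 1 (adjusted p = 9.08e-20, limma) and by 0.78 ± 0.12 in CCM (adjusted p = 1.08e-06). On day 4 its lowest, median and highest levels were 9.89, 10.40 and 11.08 in AIM, against 11.50, 11.96 and 12.10 in CCM, with no overlap. On day 7 they were 10.67, 11.07 and 11.97 in AIM, against 11.37, 11.93 and 12.09 in CCM, and 2 of 7 AIM cultures lay inside the range of CCM. On day 14 they were 10.90, 11.02 and 11.87 in AIM, against 10.70, 11.66 and 12.07 in CCM, and all 8 AIM cultures did. The difference was 0.08 ± 0.12 on day 1 (adjusted p = 0.66), -1.46 ± 0.11 on day 4 (adjusted p = 6.74e-14), -0.57 ± 0.13 on day 7 (adjusted p = 0.00022) and -0.22 ± 0.11 on day 14 (adjusted p = 0.11). Within AIM, the level was 0.79 ± 0.12 higher on day 7 than on day 4 (adjusted p = 1.43e-05), a step at which 3.36% of all probe sets were called higher and 1 other member, TNC, was called.

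TNC, a large hexameric glycoprotein that weakens the adhesion of cells to fibronectin and appears in wound repair, was the member with the largest change on the first day. Relative to day 0 in CCM it was 1.34 ± 0.14 higher on day 1 in CCM, or 2.53-fold (adjusted p = 6.28e-10, limma), and 1.02 ± 0.13 higher on day 1 in AIM, or 2.03-fold (adjusted p = 5.23e-08). Its lowest, median and highest levels were 9.59, 10.46 and 11.07 on day 0, and on day 1 they were 11.11, 11.56 and 12.17 in AIM and 11.41, 11.93 and 12.12 in CCM. By day 4 the level in AIM had dropped by 1.79 ± 0.13 relative to day 1 (adjusted p = 3.95e-15), to 8.90, 9.91 and 10.19 in AIM, against 10.29, 10.83 and 11.44 in CCM. The media did not overlap on day 4, nor on day 14 (10.30, 10.71 and 11.30 in AIM against 11.34, 11.54 and 11.98 in CCM), whereas on day 7, with 9.49, 10.44 and 11.17 in AIM and 10.82, 11.63 and 12.00 in CCM, 2 of 7 AIM cultures lay inside the range of CCM. The difference was -0.32 ± 0.13 on day 1 (adjusted p = 0.063), -1.09 ± 0.13 on day 4 (adjusted p = 1.69e-09), -1.11 ± 0.14 on day 7 (adjusted p = 1.5e-08) and -0.86 ± 0.13 on day 14 (adjusted p = 2.58e-07). From day 4 to day 14 the level in AIM was 0.98 ± 0.13 higher (adjusted p = 1.2e-07), and it remained below that of CCM.

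SPARC, a collagen-binding glycoprotein whose loss in mice goes along with more fat tissue, had the narrowest range of levels. The means of its 9 states, each averaged over the pools, ran between 12.30 (CCM, day 14) and 12.59 (AIM, day 1), a range of 0.29. Its probe set is brighter than 99.9% of all probe sets, and whether a signal of this height was limited by saturation was not tested. In the fit without a filter, the difference between the media was 0.07, 0.11, 0.08 and 0.16 ± 0.06 on days 1, 4, 7 and 14 (adjusted p = 0.55, 0.14, 0.44 and 0.029, limma), and none passed. On day 14 the lowest, median and highest levels were 12.22, 12.48 and 12.59 in AIM and 12.16, 12.25 and 12.53 in CCM. The ranges overlapped, and 6 of 8 AIM cultures lay inside that of CCM. Within CCM, day 14 differed from day 1 by -0.22 ± 0.06 and passed (adjusted p = 0.0044).

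**Figure D2:**
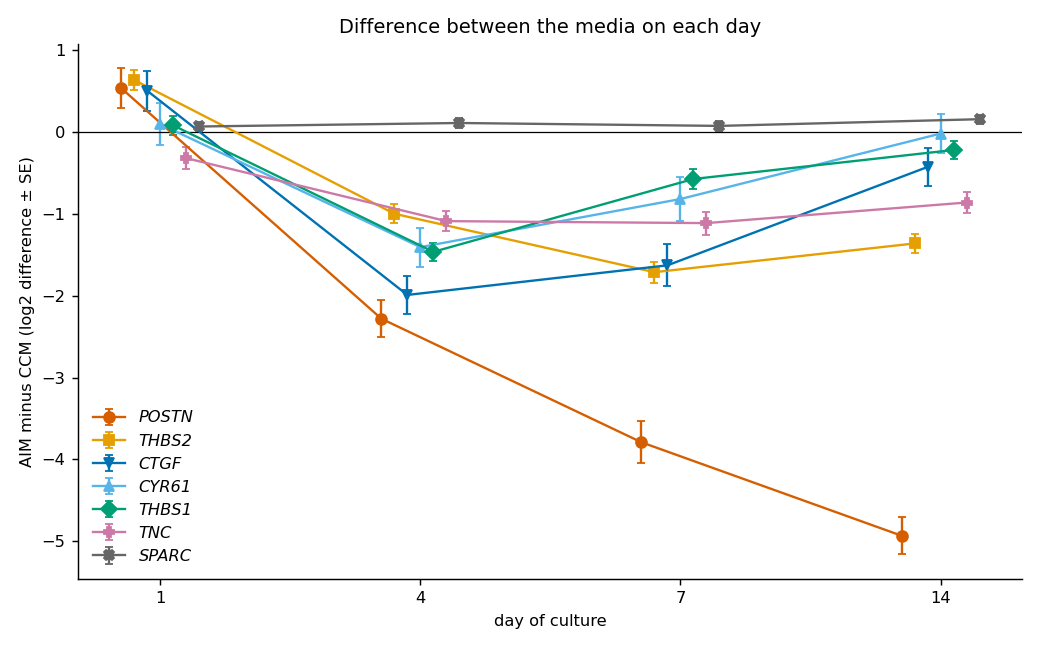
Difference in log2 intensity, AIM minus CCM, with its SE (vertical axis) on days 1, 4, 7 and 14 (horizontal axis, equal steps) for the 7 genes. The difference in POSTN reaches -4.93 on day 14, those of THBS2 and TNC remain at -1.36 and -0.86, those of CTGF, CYR61 and THBS1 lie between -0.43 and -0.02, and SPARC lies at 0.16.

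The change of the medium difference between days was tested as an interaction of medium and day. Between day 1 and day 4 it moved downward in all 6 tested members (17.9% of all probe sets), between -2.82 in POSTN and -0.77 in TNC. From day 4 to day 14 the members went separate ways. The difference moved back upward by 1.56 ± 0.32 in CTGF (adjusted p = 0.0004, limma), by 1.39 ± 0.34 in CYR61 (adjusted p = 0.0024) and by 1.25 ± 0.16 in THBS1 (adjusted p = 2.79e-07), where 7.65% of all probe sets were called. It decreased by 2.65 ± 0.32 in POSTN (adjusted p = 9.27e-08), where 5.68% were. In THBS2 (-0.36 ± 0.16, adjusted p = 0.12) and TNC (0.23 ± 0.18, adjusted p = 0.42) the change did not pass. For THBS2 this depends on the probe set, since its second one gave -0.61 ± 0.16 and passed (adjusted p = 0.0043, limma). The other TNC probe sets gave 0.04 and -0.02 and did not pass. Both interactions use the arrays of day 4.

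Over the 36 group means, Pearson's r of the levels was 0.87 between CTGF and CYR61, 0.90 between CTGF and THBS1 and 0.91 between CYR61 and THBS1, and after the mean of each state was taken off it was 0.73, 0.60 and 0.87. POSTN and THBS2 had an r of 0.81, or 0.47 without the state means. POSTN had an r of 0.30, 0.05 and 0.11 with CTGF, CYR61 and THBS1, and of -0.54, -0.17 and -0.30 without the state means. Other pairs were as close as some of these. THBS1 and TNC had an r of 0.70, or 0.67 without the state means, CTGF had 0.69 with both TNC and THBS2, or 0.39 and 0.28, and CYR61 and SPARC had 0.40, or 0.67 without the state means. These are descriptions, since the group means share pools, days and arrays between genes. Medium and day accounted for 86.8% of the sum of squares of POSTN over the 68 arrays, for between 74.9% and 83.5% in the other 5 tested members and for 44.7% in SPARC.

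**Figure D3:**
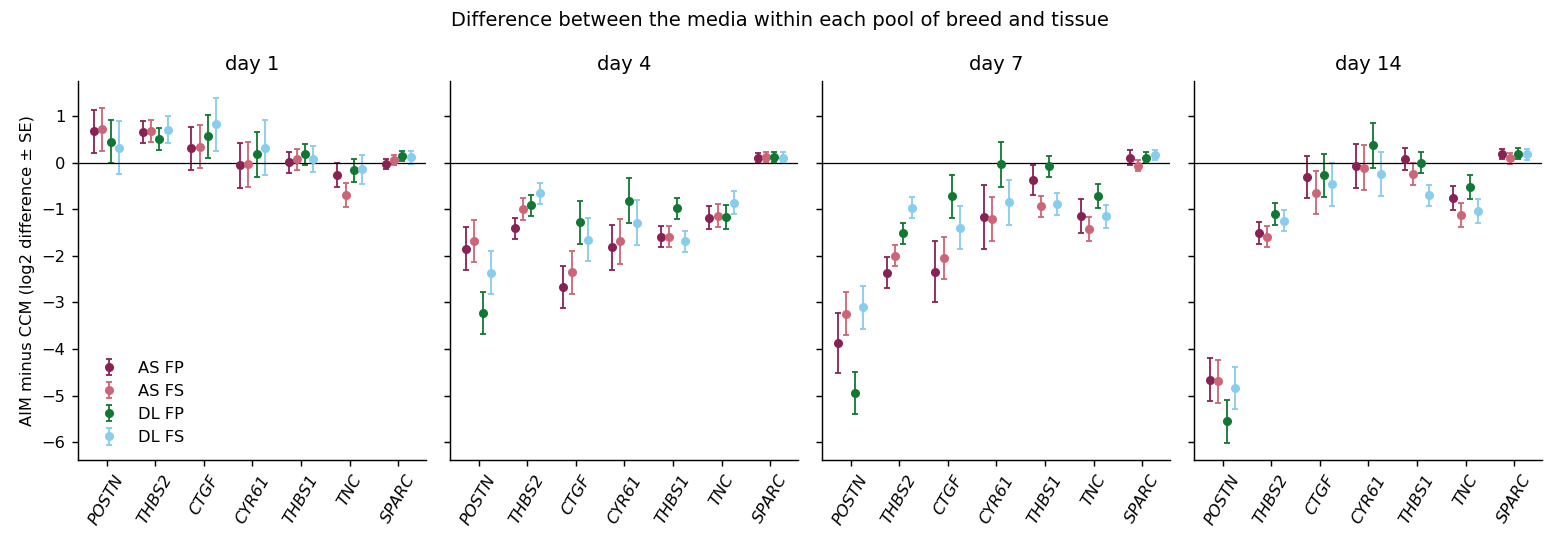
Difference in log2 intensity, AIM minus CCM, with its SE (vertical axis) for each gene within each of the 4 pools, by day (panels). Points are AS FP, AS FS, DL FP and DL FS from left to right. All 4 pools of POSTN lie between -4.66 and -5.55 on day 14, and the DL FP pool has the smallest differences of CTGF, CYR61 and THBS1 on days 4 and 7.

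In the AS FP pool on day 7 each medium has 1 array, so that its calls set 1 culture against 1, with the spread taken from the other groups. Within the single pools, the POSTN difference was called in 4 of 4 pools on days 4, 7 and 14, between -1.68 and -3.23, between -3.11 and -4.94 and between -4.66 and -5.55. THBS2 was called lower in 3 of 4 pools on day 4 and in all 4 on days 7 and 14, and it was higher in AIM on day 1 by 0.51 to 0.71 in each pool without a call. THBS1 and TNC were called in 4 of 4 pools on day 4 and in 2 of 4 on day 7. Another TNC probe set, with a mean of 10.95 against 10.98 in the main one, was called lower on day 7 in AS FS, DL FP and DL FS. Its differences there were -1.55, -1.10 and -1.34, and in AS FP, with 1 culture against 1, it was -1.72. CTGF was called in 3 of 4 pools on day 4, from -2.67 in AS FP to -1.28 in DL FP, which missed the threshold (adjusted p = 0.028), and in 2 of 4 on day 7. CYR61 was called in the AS FP and AS FS pools on day 4 (-1.82 and -1.69), not in the DL FP and DL FS pools (-0.82 and -1.29), and in no pool on day 7. Of all probe sets, 19.1%, 17.4%, 15.5% and 14.3% were called lower in AS FP, AS FS, DL FP and DL FS on day 4. The shares were 11.0%, 19.7%, 15.4% and 11.0% on day 7, and 15.5%, 17.1%, 12.5% and 15.1% on day 14.

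Next, AS was compared with DL within each medium and day. Of the comparisons of 6 members in 9 states, 4 passed, all with lower levels in AS. By sign alone, TNC and THBS1 were lower in AS in each of the 9 states, mostly without a call, and these states share the same pools. Lower in AS were 1.52%, 1.39%, 6.65% and 2.48% of all probe sets in AIM on days 1, 4, 7 and 14, and 0.665%, 0.758%, 0.644%, 0.731% and 0.873% in CCM on day 0 and the 4 later days in order. TNC in AIM on day 7 had 10.08 in the FP culture and 9.49 and 9.70 in the FS cultures of AS, against 11.15 and 11.17 in the FP and 10.44 and 10.54 in the FS cultures of DL. No AS culture reached the lowest DL culture. The difference was -0.996 ± 0.20 (adjusted p = 0.00058, limma). With all 72 arrays, which adds the left-out AS FP culture, it was -0.66 (adjusted p = 0.11). The other TNC probe sets gave -0.89 and -0.92 on this day, and both passed (adjusted p = 0.00016 and 0.00033).

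On day 4 in AIM, TNC had 9.36, 8.90, 9.58 and 9.82 in AS, against 10.19, 10.12, 10.19 and 9.99 in DL, again without overlap. This difference of -0.71 ± 0.18 passed (adjusted p = 0.0084, limma). The other TNC probe sets gave -0.42 and -0.43 and did not pass (adjusted p = 0.062 and 0.085). The difference of the main probe set missed the threshold with all 72 arrays (adjusted p = 0.084) and when any of 7 of the 8 culture lines was left out, all but AS FS replicate 2. THBS2 in AIM on day 7 had 7.89, 8.08 and 8.06 in AS, against 8.28, 9.00, 8.41 and 9.06 in DL, a difference of -0.72 ± 0.18 (adjusted p = 0.0057, limma). The second THBS2 probe set gave -0.37 and did not pass (adjusted p = 0.17). With all 72 arrays the difference was -0.25 (adjusted p = 0.73), and it also missed the threshold without a filter, with centred arrays and with quantile normalization (adjusted p = 0.014, 0.014 and 0.018) and without any 1 of the 4 DL lines (adjusted p between 0.026 and 0.046). In CCM on day 14, THBS1 had 10.70, 10.72, 11.15 and 11.59 in AS, against 11.96, 12.07, 11.73 and 11.74 in DL, a difference of -0.83 ± 0.16 (adjusted p = 0.0013, limma). It missed the threshold without AS FP or AS FS replicate 1, either DL FP line or DL FS replicate 1 (adjusted p between 0.014 and 0.045). The breeds did not overlap in either case.

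CYR61 in AIM on day 14 differed by -1.22 ± 0.34 between AS and DL and missed the threshold (adjusted p = 0.020, limma). Its levels were 8.03, 8.21, 9.03 and 8.68 in AS, against 10.24, 10.00, 9.62 and 8.97 in DL, and 1 AS culture lay above the lowest DL culture. In CCM on day 14 CYR61 differed by a like amount, -1.07 ± 0.34 (adjusted p = 0.082). The medium difference itself was not shown to depend on breed. No interaction of breed and medium passed for a member on any day, with THBS2 on day 7 nearest (-0.94 ± 0.26, adjusted p = 0.045), where 0.0164%, 0.480%, 0.704% and 0.387% of all probe sets were called in either direction on days 1, 4, 7 and 14.

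**Figure D4:**
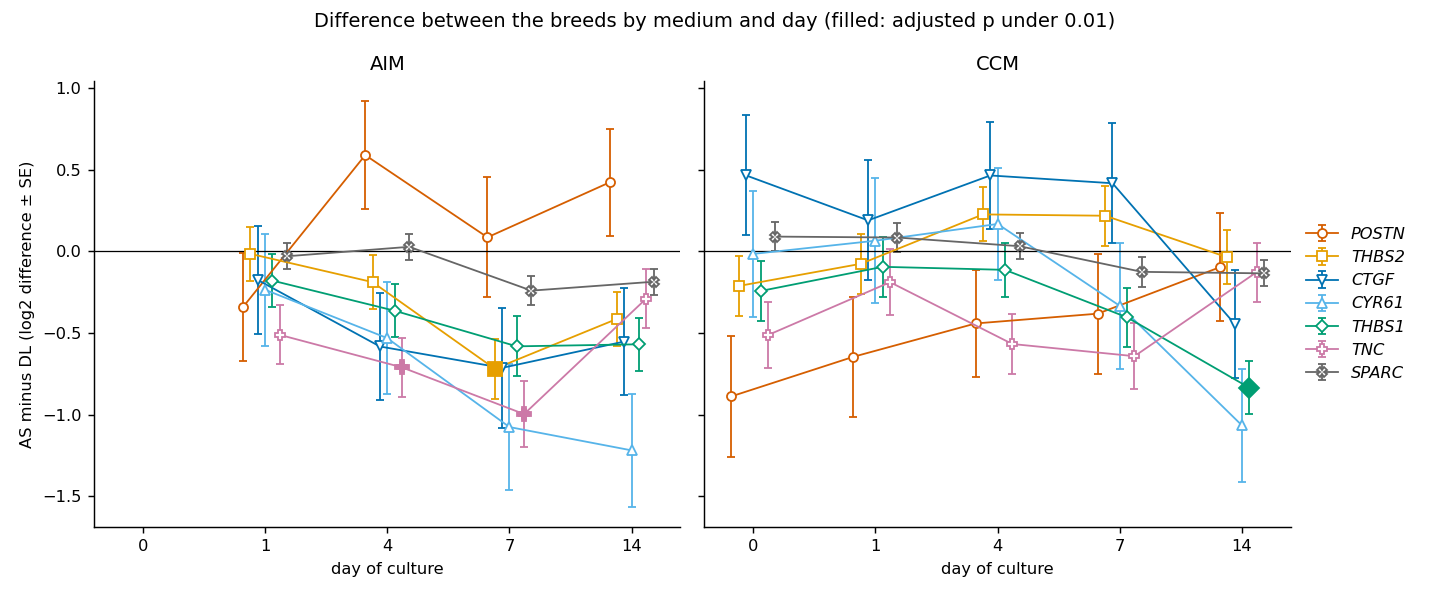
Difference in log2 intensity, AS minus DL, with its SE (vertical axis) by day (horizontal axis, equal steps) in AIM (left) and CCM (right). Filled symbols are the 4 differences with an adjusted p under 0.01, TNC in AIM on days 4 and 7, THBS2 in AIM on day 7 and THBS1 in CCM on day 14, all below 0.

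FP was compared with FS in the same way, and no member passed in any of the 9 states, where 0.305%, 0.731%, 0.322% and 0.584% of all probe sets were called in either direction in AIM on days 1, 4, 7 and 14, and 0.409%, 0.175%, 0.464%, 0.196% and 0.518% in CCM on day 0 and the 4 later days in order. By sign alone, POSTN was lower in FP in each of the 9 states (-0.32 to -1.55) and TNC higher (0.03 to 0.59). These states share the same pools. Among the probe sets of highest mean, the lowest adjusted p-values were those of POSTN in AIM. The other TNC probe sets had lower ones in CCM on day 0 (0.013 and 0.015, limma). They were 0.73 and 0.80 higher in FP and did not pass, while the main TNC probe set differed by 0.59 (adjusted p = 0.25). POSTN in AIM on day 7 had 9.58 in the left-out AS FP culture, above every FS culture. That array had a median correlation of -0.50 with arrays of its label and of 0.58 with those of its nearest other label. The left-out CCM array of AS FP on day 7 had a POSTN level of 5.05. Whether these arrays were exchanged was not tested. The FP cultures used had 6.14 in AS and 5.61 and 5.30 in DL. The FS cultures had 7.60 and 6.57 in AS and 6.90 and 8.22 in DL. Only with the array of 9.58 left out did every FP culture lie below every FS culture. The difference was -1.55 ± 0.37 (adjusted p = 0.026, limma). On day 4 it was -1.20 ± 0.33 (adjusted p = 0.044). With the replicate number of each pool as a fixed block, both passed (adjusted p = 0.0024 on day 7 and 0.0098 on day 4). No interaction of tissue and medium passed for a member, with THBS1 on day 14 nearest at 0.51 ± 0.23 (adjusted p = 0.42), and 0%, 0.0327%, 0.0273% and 0.0927% of all probe sets were called on days 1, 4, 7 and 14.

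The genes most like each member over the 36 group means were looked up among 7441 named genes with a tested probe set. For POSTN these were FBLN1 (r = 0.95), which encodes the matrix glycoprotein fibulin 1, PDGFRL (r = 0.92) and the adhesion molecule CADM1 (r = 0.91). CTGF was nearest to REXO2 (r = 0.95), VGLL3 (r = 0.94), a cofactor of TEAD factors, and the G protein subunit GNA12 (r = 0.93). For CYR61 they were the signalling adaptor BCL10, AMOTL2, an angiomotin family member that binds YAP, and the arginine transporter SLC7A1, each with an r of 0.94. THBS1 lay nearest to DDAH1 (r = 0.97) and the actin-associated PALLD and PDLIM5 (r = 0.95 each). THBS2 was nearest to the transcription factor ZNF521 (r = 0.94), USP54 and TMEM159, and TNC to the lymphatic growth factor VEGFC (r = 0.85), the integrin subunit ITGA8, a partner of tenascin C, and HACE1 (r = 0.84 and 0.82). The r values carry no p, because the means share pools and states.

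Among 12 tested genes of other matricellular proteins, 6 were lower and 2 higher in AIM on day 4 (29.5% and 19.6% of all probe sets), with a median difference of -0.60. WISP2, a CCN family member, differed by -1.78 ± 0.08 on day 4 (adjusted p = 2.35e-21, limma), with means of 6.23 in AIM and 8.00 in CCM. SPOCK3, a testican, differed by -1.70 ± 0.16 on day 4. In the other direction WISP1 was 0.54 ± 0.10 higher in AIM on day 14, and FSTL1, a SPARC-related glycoprotein, 0.68 ± 0.10 higher on day 1. On days 1, 7 and 14, 4 were lower each time, while 2, 0 and 3 were higher. Of all probe sets, 17.6%, 27.4% and 27.7% were lower and 10.4%, 17.7% and 20.9% higher, so that the 4 lower genes on days 7 and 14 lay near the background.

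Of 14 tested receptors of the members, 3 were higher and 7 lower in AIM on day 4 (19.6% and 29.5% of all probe sets), and 4 were higher and 5 lower on day 14 (20.9% and 27.7%), at medians of -0.17 and -0.14. CD36, the scavenger receptor that binds thrombospondins and takes up fatty acids in adipocytes, averaged 10.83 in AIM and 3.53 in CCM on day 4 and was called higher in AIM (adjusted p = 4.81e-18, limma). Its level in CCM lay near the background controls at 3.33, which limits the size of the measured difference. ITGB3, whose heterodimer with ITGAV binds periostin, CTGF and CYR61, was lower in AIM on each day, with a difference of -1.89 on day 1. On day 14 its means were 3.42 in AIM and 6.90 in CCM (adjusted p = 5.1e-22, limma), and the level in AIM lay near the background controls, which likewise limits the size of the difference. ITGA8 differed by -2.44 ± 0.18 on day 4. ITGA5, a fibronectin receptor subunit, was higher in AIM on day 1 (1.22 ± 0.11) and day 14 (1.01 ± 0.11), and on day 4 its difference of 0.22 did not pass.

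Of 15 tested genes of TGF-beta signalling, 4 were higher and 7 lower in AIM on day 4 (19.6% and 29.5% of all probe sets), and 3 higher and 8 lower on day 14 (20.9% and 27.7%), at medians of -0.04 and -0.43. The latent TGF-beta binding protein LTBP2 differed by -2.38 ± 0.11 on day 14 and the ligand TGFB3 by -1.51 ± 0.16 on day 4. The co-receptor TGFBR3 was 1.38 ± 0.11 higher in AIM on day 1 and the inhibitor SMAD7 0.70 ± 0.13 higher on day 14. Of 22 tested components and targets of YAP and TEAD, 11 were lower on each of days 4, 7 and 14 (29.5%, 27.4% and 27.7% of all probe sets), and 2, 1 and 1 were higher (19.6%, 17.7% and 20.9%), at medians of -0.22, -0.31 and -0.42. MYOF, which encodes a membrane repair protein, differed by -2.88 ± 0.06 on day 4 (adjusted p = 1.68e-30, limma), and CCDC80 by -1.81 ± 0.08 on day 14. IGFBP3 was 2.69 ± 0.27 higher in AIM on day 4, and WWTR1, which encodes the YAP relative TAZ, was 1.44 ± 0.07 higher on day 1 but differed by -0.17 on day 4 (adjusted p = 0.034). TGFB2 is counted in both of these lists.

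Among 11 tested matrix partners of the members, 7 were lower in AIM on day 4 and none was higher (29.5% and 19.6% of all probe sets). On day 7, 8 were lower and 3 higher (27.4% and 17.7%), and on day 14, 5 and 3 (27.7% and 20.9%). LOX, the collagen cross-linking enzyme whose activation periostin promotes, differed by -1.54 ± 0.13 on day 7 (adjusted p = 4.66e-13, limma). COL6A3, a collagen VI chain, differed by -1.19 ± 0.10 on day 14, on which the collagen V chain COL5A2 and the cross-linking enzyme LOXL2 were 1.04 ± 0.06 and 1.09 ± 0.08 higher. The median difference of the matrix partners was -0.61 on day 4 and -0.19 on day 14.

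Probe sets of the same gene bore on how far a value rests on its probes. The second THBS2 probe set gave 0.67, -0.74, -1.45 and -1.35 on days 1, 4, 7 and 14, each called in the same direction as the first. The other TNC probe sets gave -1.12 and -1.09 on day 4. Their day 7 differences were -1.43 and -1.44, and those of day 14 were -1.08 and -1.11. On day 1 one of them passed (-0.38, adjusted p = 0.0049, limma) and the other did not (-0.36, adjusted p = 0.015). The 3 further probe sets of CTGF and the second of THBS1 averaged below the background controls at 3.33 and were not tested. The second SPARC probe set, with a mean of 3.93, was tested and not called on any day, with a difference of 0.31 on day 14 (adjusted p = 0.024). POSTN and CYR61 have 1 probe set each.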

How the data were processed

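RNA of the SMSC cultures was hybridized to Affymetrix Porcine Snowball arrays and scanned with GCOS (version 1.1.1, as the submitters' processing notes name it). The authors corrected the background, normalized across arrays and summarized probe sets by RMA in Expression Console, and deposited 1 table of log2 intensities. The genome build behind the probes is not given in the sources used here. Array medians lay between 3.95 and 4.12, and the number of arrays limits the precision.

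The 7 genes and all gene lists were chosen with earlier results of these data known. Symbols came from the platform annotation, and 221 names that conflict with the study's files were not used. Besides the 7 genes, the text names the 3 genes most like each and up to 2 genes with the highest and 2 with the lowest passing difference of each list. Probe sets were tested if they were no controls, had an SD above 0.25 over the 72 arrays and lay above the array's median in at least 8 arrays. The 68 arrays were fitted in limma (version 3.58.1, R version 4.3.3) with 36 group means. The 8 culture lines of a breed, tissue and replicate entered as a random block, for which duplicateCorrelation with statmod (version 1.5.0) gave a correlation of 0.026, and eBayes moderated the variances. The 4 arrays whose labels conflict with their values were left out, and 4 groups then hold 1 array. Pools had equal weight. The replicate numbers name cultures, and arrays of 1 pool with the same number deviated together little from their group means (median correlation 0.032). Arrays of 1 state with the same number in 2 pools did so somewhat more (median 0.096, at most 0.32), which the block by culture line does not model. Alternatives varied arrays, filter, scaling, block, variance model, replicates, probe sets and threshold. The fit was checked on simulated data. Figures were drawn in Python (version 3.11.15) with matplotlib (version 3.10.9).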

Additional observations from a re-analysis of the deposited data

Results flagged for a closer look

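In 63 sets of 7 or 8 arrays, 1 for each gene and state, 1 sample lay far from the others in 2, where chance alone flags about 5%. For CYR61 in AIM on day 4, the AS FP culture of replicate 1 had 6.75, while the other 7 arrays lay between 7.91 and 8.86. The same culture was also the lowest of its state for CTGF (6.43), THBS1 (9.89) and THBS2 (8.30). For THBS2 in CCM on day 14, the AS FP culture of replicate 2 had 9.68, while the others lay between 9.85 and 9.98. No explanation of either was tested.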

How the results depend on the processing

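The counts of members lower in AIM on days 4, 7 and 14 kept within 1.5 times of 6, 6 and 3 under every alternative run, and leaving out 1 culture line gave 6, 5 to 6 and 3. On day 1 the count of members higher in AIM was 0 with all 72 arrays instead of 1 (THBS2). The number of breed differences, 4, was 1 with all 72 arrays, 2 without a filter, 1 over the mean of all probe sets of a gene and 8 at an adjusted p under 0.05. Leaving out 1 culture line gave 1 to 4, with 1 left without DL FP replicate 2 and 2 left without AS FS replicate 1 or DL FS replicate 2. Replicate 1 of AS FP, DL FP and DL FS has no count, because leaving out any of these lines empties a group. Without replicate 1 of DL FP or of DL FS, THBS1, THBS2 and TNC on day 4 each missed the threshold. Without AS FP replicate 1, THBS1 and TNC on day 4 did, and no AS FP array was left on day 7. At an adjusted p under 0.05, 2 tissue differences and 1 interaction of breed and medium passed, against 0. The share of all probe sets at an adjusted p under 0.05 was not worked out for breed, tissue and their interactions. Nothing about the members is therefore read from these counts or from the 8 breed differences. Without the replicate block, CYR61 on day 7 gave the same difference of -0.82 with an adjusted p of 0.012 (limma), so that 5 members were lower on that day, and the other counts were the same. With a fixed replicate block, 2 tissue differences (POSTN in AIM on days 4 and 7) were called instead of 0 and 5 breed differences instead of 4, and the other counts were the same. Over all alternatives, that of AS FP replicate 1 left out included, the difference of CYR61 on day 4 lay between -1.46 and -1.31.

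The difference of CYR61 on day 14, -0.02, changed sign to 0.056 with arrays centred on their medians and lay between -0.11 and 0.077 over culture lines left out. Over the mean of all probe sets, of which 1 of 2 in THBS1 lies below background, THBS1 reversed at 3 places: day 7 against day 4 in AIM (-0.15), day 14 against day 0 in CCM (0.033) and the change of the medium difference from day 4 to 7 (-0.17). The difference of CTGF on day 4 shrank to -0.66 in that mean, where 3 of 4 probe sets are dim. That of SPARC moved to 0.21 on day 4 with centred arrays and to 0.18 on day 7 over both its probe sets. With centred arrays the median difference of all probe sets on day 4 was 0.08 instead of -0.02, and 49.2% instead of 39.9% of calls were higher in AIM. Of 1482 values of 84 member results under the alternatives, 1332 kept their call and direction, 140 no longer passed, 8 reversed and 2 moved. These results are the medium differences by day, called or not, and of the other comparisons only those called in the main fit. A call gained in another comparison is thus not counted, and a medium difference that stayed without a call counts as kept. Breed and tissue comparisons that lost a group with a left-out line have no value there.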
